A study of Mus musculus with 5 samples.

Results

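The genes examined here are 2 families of vesicle traffic regulators in the mouse: 30 genes whose symbols start with Tbc1d and 69 whose symbols start with Rab and a digit, 99 of the 21521 protein-coding genes of the RefSeq annotation of GRCm38. They were chosen by symbol, with their numbers of EBF1 sites in this same site list already known, so the shares of genes with a site below are descriptions and carry no test. Members were matched to sites by position. A site belongs to the shortest protein-coding gene that holds its centre, or otherwise to the nearest such gene within 100 kb.

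The sites come from 1 ChIP-seq library of pro-B cells, which are B-lineage progenitors. Chromatin was precipitated with an antibody against EBF1, a transcription factor needed for that lineage. The cells were fetal liver cells lacking Ebf1 (Ebf1-/-) that received wild-type EBF1 by transduction, so the factor was supplied from outside its own locus. The series, titled as a test of phase separation in the pioneering function of EBF1, has 5 libraries in 5 groups: anti-EBF1 with EBF1 wt, anti-EBF1 with EBF1 YmA, anti-Brg1 with EBF1 YmA, and 2 inputs with EBF1 wt. Only the first is described here. There is no replicate, and the cell type could not be checked against markers from site positions alone. The list holds 7494 sites of 300 bp, each with 1 of 3 class names given by the authors, CTD-ind, YmA-ind and YmA-dep. No source used here says how sites were put in these classes, and the names serve as labels only. No score, height or read depth comes with a site, so genes lacking a site cannot be called unbound.

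Rab proteins are small GTPases that sit on membranes in their GTP-bound form and there recruit effectors, which tether, move or fuse vesicles. Exchange factors load them with GTP, and many proteins with a TBC (Tre-2, Bub2, Cdc16) domain act as GTPase-activating proteins that switch them off. In B cells the same machinery carries the antigen receptor inward and sorts antigen to compartments where it is processed. Not every symbol of the Rab family names a GTPase: 59 of the 69 do, and 10 name partner proteins (Rab11fip1 to Rab11fip5, Rab3gap1, Rab3gap2, Rab3il1, Rab3ip and Rab5if).

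The share of genes with a site was larger in the Tbc1d family than in the Rab family. Of 30 Tbc1d genes, 14 had at least 1 site (46.7%, exact 95% interval 28.3 to 65.7%). Of 69 Rab genes, 15 had one (21.7%, 12.7 to 33.3%), near the 19.6% of all protein-coding genes. The GTPases alone stood at 14 of 59 (23.7%, 13.6 to 36.6%) and the partner proteins at 1 of 10, Rab11fip4. The intervals of the Tbc1d and Rab shares overlap. Intervals cover counting error only. Sites inside the gene were found at 10 Tbc1d genes (33.3%) and 9 Rab genes (13.0%), against 12.9% of all genes. Counting only sites in the gene or up to 10 kb from it left 13 Tbc1d genes (43.3%) and 15 Rab genes (21.7%), against 17.0% of all genes.

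**Figure D1:**
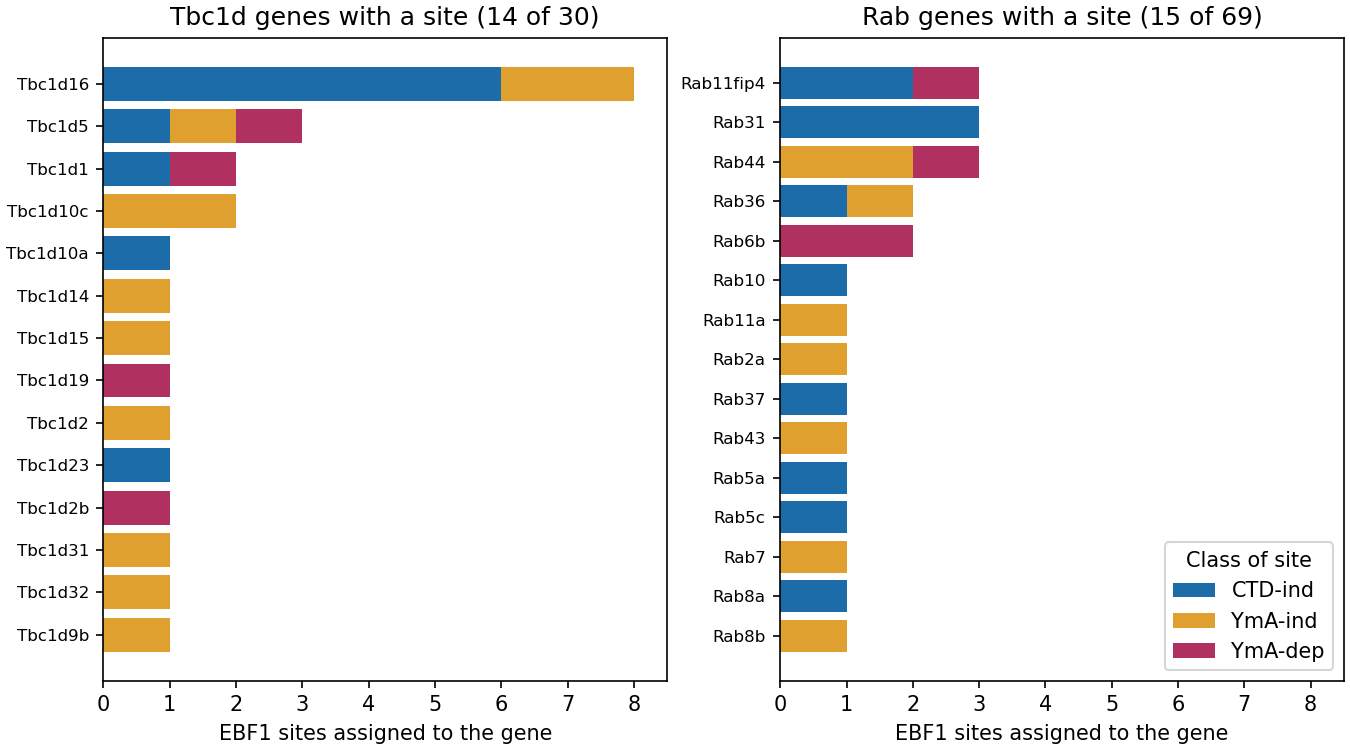
Number of EBF1 sites assigned to each Tbc1d gene (left) and Rab gene (right) with at least 1 site, as stacked bars coloured by the class of the site. Tbc1d16 stands apart with 8 sites, and no other member has more than 3.

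Tbc1d genes are also longer, and longer genes carried sites more often throughout the genome. The median span was 60.5 kb for Tbc1d genes, 25.3 kb for Rab genes and 17.4 kb for all protein-coding genes. Among all genes the share with a site was 9.70% under 10 kb, 20.0% from 10 to 30 kb, 26.7% from 30 to 100 kb and 35.1% at 100 kb and over. From 30 to 100 kb, 9 of 14 Tbc1d genes had a site (64.3%, 35.1 to 87.2%) and 7 of 23 Rab genes (30.4%, 13.2 to 52.9%). Those 23 hold 15 GTPases, of which 7 had a site (46.7%, 21.3 to 73.4%), and 8 partner genes, of which 0 had one. At 100 kb and over the counts were 3 of 7 and 2 of 5. From 10 to 30 kb they were 1 of 7 Tbc1d genes and 6 of 31 Rab genes, and under 10 kb 1 of 2 and 0 of 10. The share of Rab genes, partner genes included, thus lay within a few points of all genes of the same span from 10 to 100 kb. From 30 to 100 kb, Tbc1d genes (64.3%) and Rab GTPases alone (46.7%) both lay above all genes (26.7%). Per length of gene the families were closer together. Sites inside genes numbered 6.13 per Mb of Tbc1d span (exact Poisson 95% interval 3.51 to 9.96), 4.86 per Mb of Rab span (2.59 to 8.30) and 4.03 per Mb over all protein-coding genes (3.91 to 4.15). The Rab GTPases alone stood at 5.68 per Mb (2.93 to 9.92). Tbc1d16 held 5 of the 16 Tbc1d sites inside genes, in 85.5 kb of the 2.61 Mb of Tbc1d span. Without it 11 sites inside remained. The density was not computed without that gene, so no excess over the Rab family can be read from these values.

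**Figure D2:**
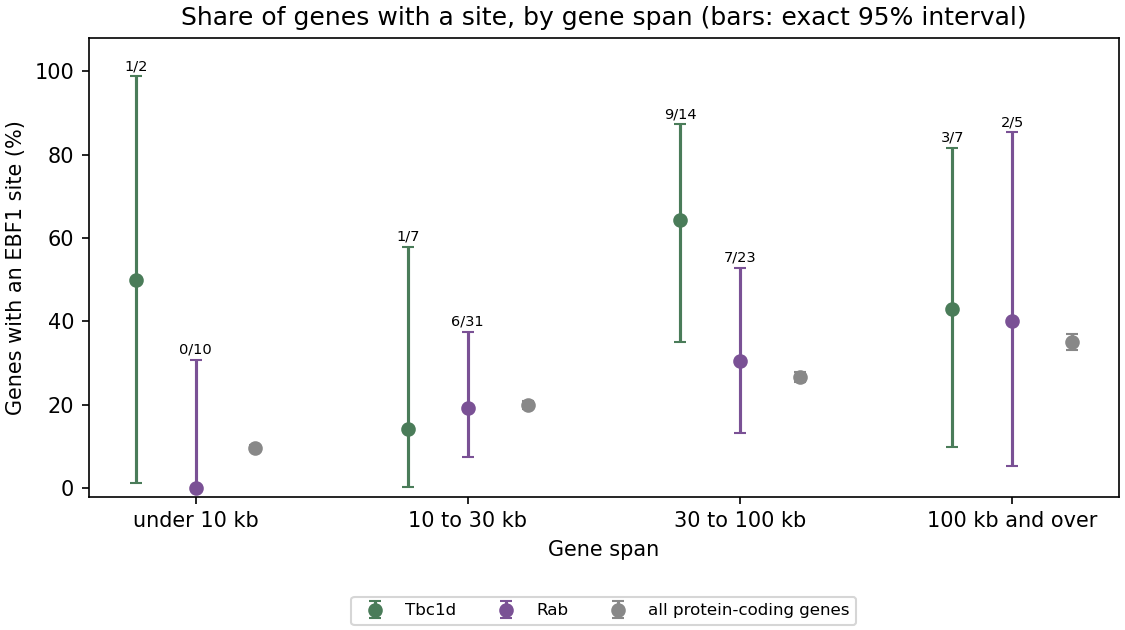
Share of genes with at least 1 EBF1 site (vertical axis, percent) in 4 bins of gene span, for Tbc1d genes, Rab genes and all protein-coding genes. Points are shares, bars are exact 95% intervals, and the counts above the bars are genes with a site over genes in the bin. The share rises with span in all protein-coding genes, from 9.70 to 35.1%. The highest family point is that of Tbc1d genes from 30 to 100 kb (64.3%, 9 of 14 genes). The families were chosen with their site counts known, so the intervals are no test against all genes. Rab points include partner genes, and in that bin the GTPases alone stood at 46.7% (7 of 15).

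All 3 classes occurred among the 25 Tbc1d sites and the 23 Rab sites. CTD-ind made up 10 Tbc1d sites (40.0%, 21.1 to 61.3%) and 11 Rab sites (47.8%, 26.8 to 69.4%), against 35.1% of all 7082 assigned sites. YmA-ind made up 11 (44.0%, 24.4 to 65.1%) and 8 (34.8%, 16.4 to 57.3%), against 53.6%, and YmA-dep 4 in each family (16.0% and 17.4%), against 11.2%. All these intervals hold the share of all sites. The CTD-ind share of the Tbc1d family rested on Tbc1d16, which had 6 of the 10: without that gene it was 4 of 17 (23.5%, 6.81 to 49.9%), and the YmA-ind share 9 of 17 (52.9%, 27.8 to 77.0%). Counted by gene, CTD-ind sites were at 5 Tbc1d genes (16.7%, 5.64 to 34.7%) and 8 Rab genes (11.6%, 5.14 to 21.6%), against 9.32% of all genes. YmA-ind sites were at 9 Tbc1d genes (30.0%, 14.7 to 49.4%) and 7 Rab genes (10.1%, 4.18 to 19.8%), against 12.2%. YmA-dep sites were at 4 Tbc1d genes (13.3%, 3.76 to 30.7%) and 3 Rab genes (4.35%, 0.906 to 12.2%), against 3.26%. In each class the Tbc1d share is higher than that of all genes. The family was chosen with its site counts known, so the intervals are no test of this, and the YmA-dep share rests on 4 genes. Since 46.7% of Tbc1d genes had a site of any class, against 19.6% of all genes, these shares show no preference for a class. Most members with a site had 1 class only, 11 of 14 Tbc1d and 12 of 15 Rab genes.

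The families were also set side by side by position. Inside the gene lay 16 of 25 Tbc1d sites (64.0%, 42.5 to 82.0%) and 13 of 23 Rab sites (56.5%, 34.5 to 76.8%), against 59.6% of all sites. Split by class, 9 of 11 YmA-ind sites of Tbc1d genes lay inside (81.8%, 48.2 to 97.7%) and 2 of 8 of Rab genes (25.0%, 3.19 to 65.1%), against 59.6% of all YmA-ind sites. Of CTD-ind sites 6 of 10 and 8 of 11 lay inside, and of YmA-dep sites 1 of 4 and 3 of 4. Sites of Rab genes lay closer to an end of their gene, with a median distance of 3.37 kb, against 15.0 kb for Tbc1d sites and 10.2 kb for all sites. Tbc1d16 gave 8 of the 25 Tbc1d sites, at 9.13 to 38.0 kb from its nearest end. The Tbc1d median is itself the distance of a Tbc1d16 site. The medians were not recomputed without that gene or adjusted for gene span, which was shorter for Rab genes. Tbc1d sites thus cannot be called farther from gene ends than all sites. Within 1 kb of an end of a protein-coding gene were 6 Rab sites (26.1%, 10.2 to 48.4%) and 4 Tbc1d sites (16.0%, 4.54 to 36.1%), against 16.5% of all sites. Widened to 2.5 kb, the counts were 10 (43.5%) and 5 (20.0%), against 26.2%, and at 5 kb 13 (56.5%) and 7 (28.0%), against 36.0%. Each pair of intervals overlaps. Tbc1d16 had none of its sites in these zones, and without it the Tbc1d share within 1 kb was 4 of 17 (23.5%, 6.81 to 49.9%). The counts of the wider zones likewise stay at 5 and 7 without that gene, then of 17 sites in place of 25. More than 10 kb outside the gene lay 2 of 23 Rab sites (8.70%, 1.07 to 28.0%), both at the partner gene Rab11fip4, and 5 of 25 Tbc1d sites (20.0%, 6.83 to 40.7%), against 20.5% of all sites. Sites were stitched into runs at the default distance of ROSE, a tool for super-enhancers. Runs of 3 or more held 10 Tbc1d sites (40.0%, 21.1 to 61.3%), at Tbc1d16, Tbc1d10c, Tbc1d2 and Tbc1d2b, and 0 of 23 Rab sites (upper bound 14.8%), against 16.0% of all sites. The intervals of the 2 families do not overlap here, but 6 of the 10 Tbc1d sites belong to Tbc1d16. Without that gene the share was 4 of 17 (23.5%, 6.81 to 49.9%), and the intervals overlap.

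**Figure D3:**
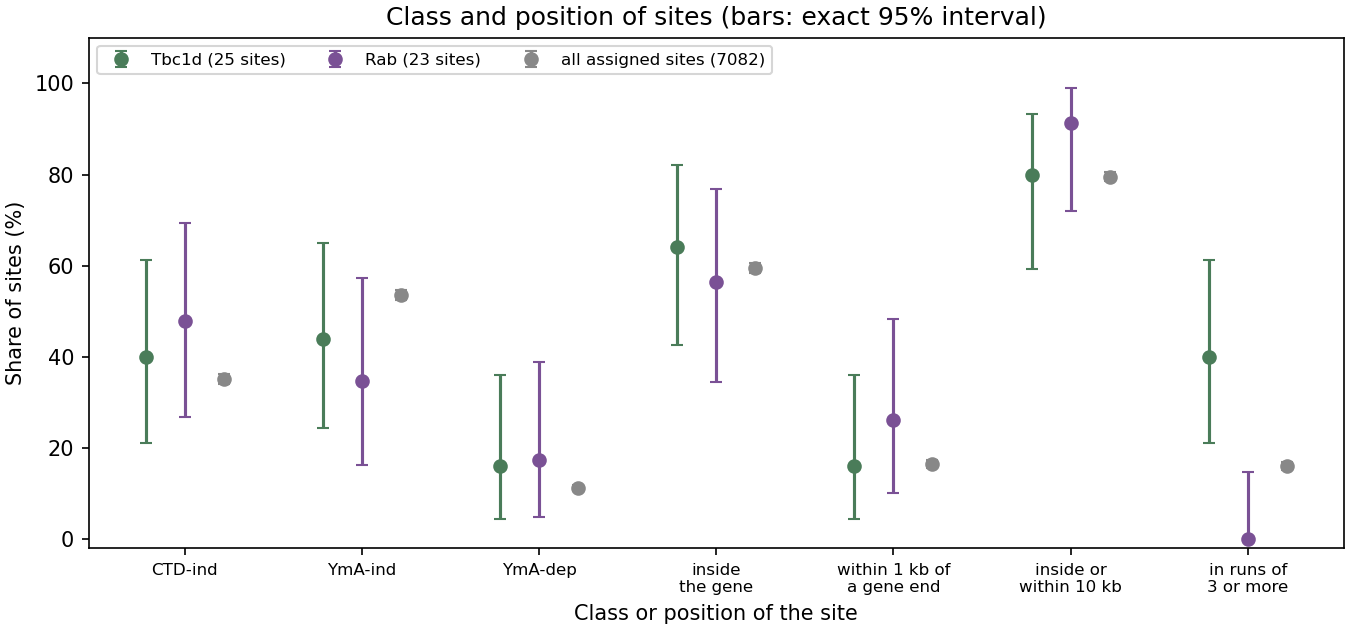
Shares of sites (vertical axis, percent) in each class and position for 25 Tbc1d sites, 23 Rab sites and 7082 assigned sites. Points are shares and bars are exact 95% intervals. The families overlap in each measure except runs of 3 or more sites, at 40.0% and 0%.

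Tbc1d16, whose product acts on the early endosomal GTPase Rab4 in transferrin receptor recycling, had the most sites of any member, 8, a number reached by 36 of all protein-coding genes (0.167%). The gene spans 85.5 kb on chromosome 11 (119143043 to 119228503). Inside it lay 5 sites: YmA-ind at 119157849 to 119158148 and 119180867 to 119181166, and CTD-ind at 119162994 to 119163293, 119190687 to 119190986 and 119191774 to 119192073. The other 3, all CTD-ind, lay 9.13, 10.8 and 20.4 kb below its lower end. They belong to Tbc1d16 by distance alone, and the farthest lies inside the non-coding gene Gm11755. Above 48.9 kb from its lower end the gene held no site, nor did the 100 kb beyond it. When every RefSeq gene, non-coding ones included, could take a site, Tbc1d16 kept 4. The CTD-ind sites at 119190687 and 119191774 overlap the promoter windows of the non-coding genes Gm11753 and Gm36111, and were centred before their starts.

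**Figure D4:**
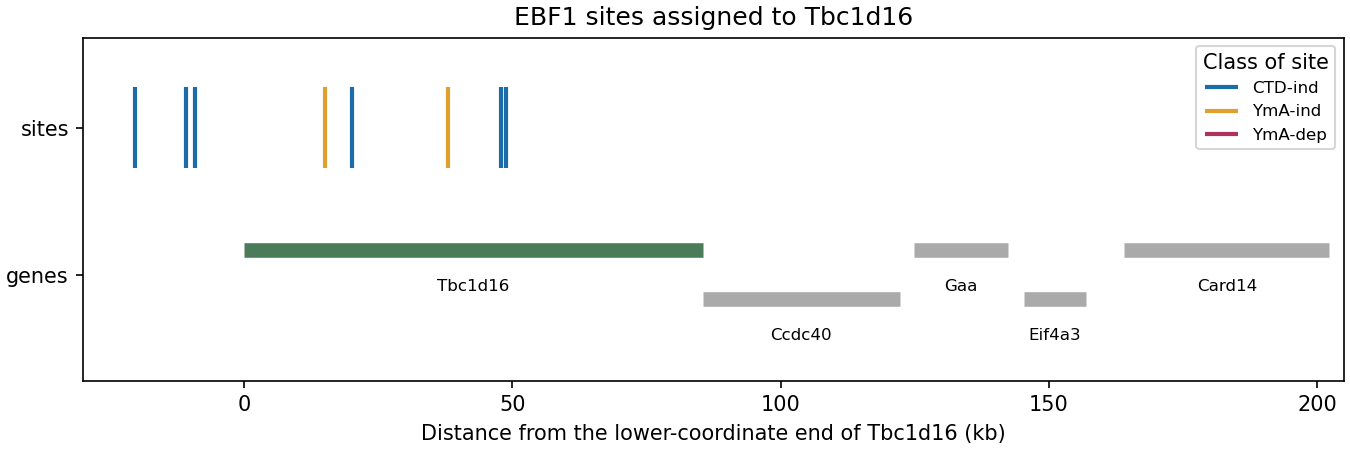
The 8 EBF1 sites assigned to Tbc1d16 (vertical lines, coloured by class), with Tbc1d16 and the protein-coding genes above it (bars), by distance in kb from its lower-coordinate end; genes below it are not drawn. The sites lie between -20.4 and 48.9 kb.

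Other Tbc1d genes had 1 to 3 sites. Tbc1d5, which acts on Rab7 together with the retromer complex, spans 448 kb and had a YmA-ind site inside (chromosome 17, 50774057 to 50774356). Its other sites, YmA-dep and CTD-ind, lay 38.7 and 59.4 kb outside, before its listed starts. Tbc1d10c encodes carabin, an inhibitor of calcineurin signalling in lymphocytes. At 6.84 kb it is the shortest member with a site, yet it held 2 YmA-ind sites on chromosome 19, at 4184989 to 4185288 and 4189161 to 4189460, in a run with a site of Rad9a. Tbc1d10a, its paralog linked to microvilli, had a CTD-ind site inside (chromosome 11, 4195707 to 4196006), 9.02 kb from its start, and Tbc1d10b had none.

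Single YmA-ind sites lay inside 4 further genes. These were Tbc1d14, an autophagy regulator (chromosome 5, 36563101 to 36563400), Tbc1d15, a Rab7 regulator at mitochondria (chromosome 10, 115242430 to 115242729), Tbc1d32, a gene of cilia and hedgehog signalling (chromosome 10, 56223873 to 56224172), and Tbc1d9b (chromosome 11, 50153916 to 50154215). Tbc1d31, another gene of the ciliary base, had one 5.62 kb outside (chromosome 15, 57975535 to 57975834). Tbc1d19 had a YmA-dep site 20.4 kb away. Tbc1d2, which acts on Rab7, and its paralog Tbc1d2b each had a site just beyond the end opposite to the listed start. The Tbc1d2 site was YmA-ind, 164 bp outside on chromosome 4 (46604077 to 46604376) and 46.0 kb from the start, in a run with sites of Coro2a. That of Tbc1d2b was YmA-dep, 294 bp outside on chromosome 9 (90201604 to 90201903) and 69.0 kb from the start, in a run with sites of Adamts7. The next genes lay 2.30 and 1.65 kb from these sites.

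Sites at listed starts of members were CTD-ind, but there were only 5. A start was listed in the RefSeq promoter table (GRCm38.p6) for 79 of the 99 members, and 25 sites belonged to such members. Within 1 kb of a listed start lay 5 of these 25, at Rab8a (5 bp before), Rab5a (195 bp before), Tbc1d1 (at -116 bp), Tbc1d23 (185 bp after) and Rab10 (524 bp after). Of all assigned sites within 1 kb of a listed start of their gene, 68.6% (637 of 929) were CTD-ind. The 3 sites within 1 kb of a gene end but farther from any listed start, at Tbc1d2, Tbc1d2b and Rab43, were YmA-ind or YmA-dep. Over all genes, 35.9% of 192 sites so placed were CTD-ind. Near an end of genes without a listed start, Rab36 had a CTD-ind site (256 bp inside), and Tbc1d10c (782 bp inside) and Rab2a (952 bp outside) had YmA-ind sites. The members with a site and without a listed start were Rab2a, Rab11fip4, Rab36, Rab37, Rab44, Tbc1d10c, Tbc1d16, Tbc1d19, Tbc1d31 and Tbc1d32.

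**Figure D5:**
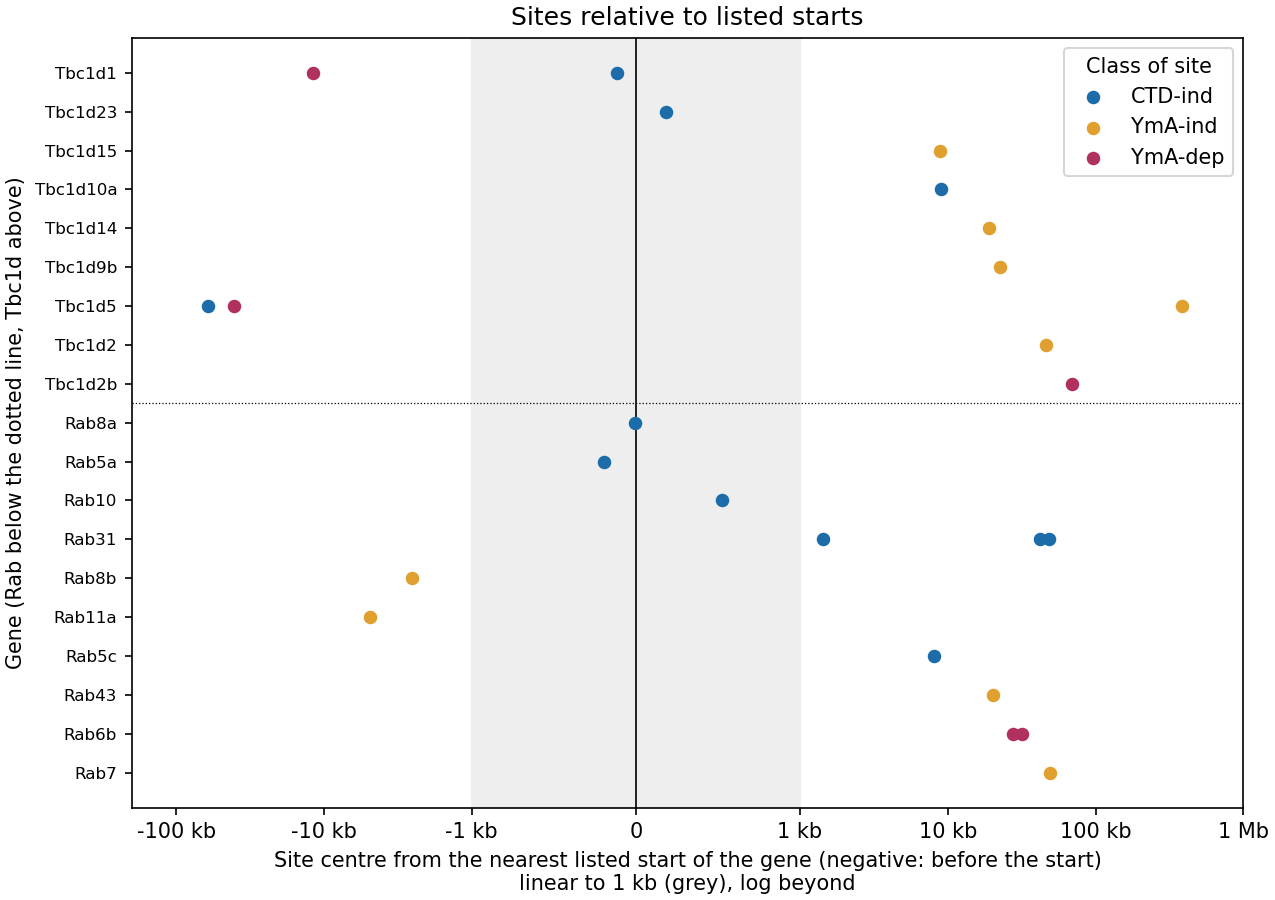
Distance of each site from the nearest listed start of its gene (horizontal axis, linear within 1 kb and logarithmic beyond, negative before the start) for the 25 sites of members with a listed start, coloured by class. The 5 sites in the grey 1 kb zone are all CTD-ind. The other CTD-ind sites lie from 1.43 to 61.2 kb away, and the YmA-ind and YmA-dep sites from 2.52 to 385 kb away.

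Sequence was at hand for promoters, 250 bases before a start to 50 after it, and 4 of the 104 listed starts of members had a site on this window, against 579 of 21045 of all protein-coding genes. These 4 promoters are shown because EBF1 sites overlap their windows. At Tbc1d23 the overlap lies wholly after the start, outside the bases printed. Each is printed 5′ to 3′ on the strand of its gene, from RefSeq (GRCm38.p6), and ends at the base before the start, except that Rab8a runs on to the end of a motif that crosses it. Capitals mark matches to CCCNNGGG, the palindromic core of the sequence that EBF factors recognise, which reads the same on both strands.
Rab8a: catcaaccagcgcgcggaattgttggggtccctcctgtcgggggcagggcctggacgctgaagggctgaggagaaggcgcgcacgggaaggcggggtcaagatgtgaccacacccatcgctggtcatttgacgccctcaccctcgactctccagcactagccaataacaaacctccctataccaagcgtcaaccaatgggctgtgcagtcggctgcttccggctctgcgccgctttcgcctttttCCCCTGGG
Rab5a: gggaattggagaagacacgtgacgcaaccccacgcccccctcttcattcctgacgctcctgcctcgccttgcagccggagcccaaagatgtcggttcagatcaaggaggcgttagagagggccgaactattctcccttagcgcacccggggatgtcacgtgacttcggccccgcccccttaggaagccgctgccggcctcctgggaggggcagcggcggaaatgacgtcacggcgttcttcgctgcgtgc
Tbc1d1: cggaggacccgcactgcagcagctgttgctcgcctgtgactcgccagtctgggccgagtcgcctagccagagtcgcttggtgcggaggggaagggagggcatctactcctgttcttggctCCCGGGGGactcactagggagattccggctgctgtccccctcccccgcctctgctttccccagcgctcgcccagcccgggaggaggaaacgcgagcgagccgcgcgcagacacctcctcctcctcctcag
Tbc1d23: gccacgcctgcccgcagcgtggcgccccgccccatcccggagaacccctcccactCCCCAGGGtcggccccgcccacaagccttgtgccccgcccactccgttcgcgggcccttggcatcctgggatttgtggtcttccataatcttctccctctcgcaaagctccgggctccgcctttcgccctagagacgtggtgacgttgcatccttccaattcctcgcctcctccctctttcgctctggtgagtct

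The Rab8a stretch lies at chr8:72160950-72161202 on the plus strand, and its site (chromosome 8, 72161046 to 72161345) covers it from base 97 on. The core CCCCTGGG begins 5 bases before the start, within the site. The Tbc1d1 stretch, chr5:64160010-64160259 on the plus strand, belongs to a start inside the annotated gene. Its site (64159995 to 64160294), centred 3.84 kb inside the gene, covers all of it. There the core CCCGGGGG begins at base -130 from the start. Rab5a, at chr17:53478984-53479233 on the plus strand, has no match, although its site (53478890 to 53479189) covers bases 1 to 206. In Tbc1d23, at chr16:57231467-57231716 on the minus strand, the core CCCCAGGG begins 195 bases before the start and outside the site (57231132 to 57231431), which covers only the last 15 bases of the window, after the start.

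The core was about as common in member promoters as elsewhere. It was found in 4 of 30 Tbc1d windows (13.3%, 3.76 to 30.7%), 14 of 74 Rab windows (18.9%, 10.7 to 29.7%) and 15.8% of all 21045 windows. Of the 579 windows with a site, 46.6% held it, against 14.9% of those without. The form TCCCNNGGG, on either strand and always overlapping the shorter core, was found in 3 Tbc1d windows (10.0%), 5 Rab windows (6.76%) and 7.33% of all windows. The cores of Rab8a, Tbc1d1 and Tbc1d23 above have this longer form.

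By role the groups of GTPases are small, and for each of the 6 roles below the interval of its share holds the 19.6% of all genes. Among GTPases of the recycling and surface route, 4 of 9 genes had a site (44.4%, 13.7 to 78.8%), each a single one. Rab8a and Rab8b, paralogs that carry cargo from the Golgi and recycling endosomes to the surface, both had one. That of Rab8a sat on the start, and that of Rab8b was YmA-ind, 2.52 kb before the start on chromosome 9 (66922077 to 66922376). Rab10, known for glucose transporter delivery, had a CTD-ind site inside (chromosome 12, 3309296 to 3309595). Rab11a, the GTPase of recycling endosomes, had a YmA-ind site 4.88 kb before its start (chromosome 9, 64742484 to 64742783). Rab11b, Rab13, Rab15, Rab25 and Rab35 had none.

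Early endosomal GTPases had sites at 3 of 9 genes (33.3%, 7.49 to 70.1%). All 5 of these sites were CTD-ind, the class of 35.1% of all sites, and 3 of them belong to Rab31. Rab5a and Rab5c, which control fusion of endocytic vesicles, had 1 each, at the start of Rab5a and 8.01 kb inside Rab5c (chromosome 11, 100730052 to 100730351). Rab31, which acts between the Golgi and endosomes, had 3 inside its 121 kb on chromosome 17. They lay 1.43 kb (65771168 to 65771467), 42.4 kb (65730234 to 65730533) and 48.2 kb (65724353 to 65724652) after the start. Rab4a, Rab4b, Rab5b, Rab14, Rab21 and Rab22a had none.

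GTPases of the endoplasmic reticulum and Golgi had sites at 3 of 11 genes (27.3%, 6.02 to 61.0%). Their 4 sites, 2 of them at Rab6b, included 0 of the CTD-ind class. Rab6b, a Golgi GTPase abundant in neurons, had 2 YmA-dep sites, which were 27.6 and 31.9 kb after its start on chromosome 9 (103139555 to 103139854 and 103143799 to 103144098). It was the one Rab gene with YmA-dep sites alone. Rab2a, which acts between the endoplasmic reticulum and the Golgi, and Rab43 each had a YmA-ind site, on chromosome 4 (8534368 to 8534667) and chromosome 6 (87789251 to 87789550). The Rab43 site lay inside the gene, 20.4 kb from its start. Rab1a, Rab1b, Rab2b, Rab6a, Rab18, Rab19, Rab30 and Rab33b had none.

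Of 6 late endosomal and lysosomal GTPases, only Rab7, the GTPase of late endosomes, had a site: YmA-ind and 3.37 kb beyond the end opposite to its start (chromosome 6, 87995583 to 87995882). Rab7b, Rab9, Rab9b, Rab24 and Rab29 had none. Of 10 genes of secretory granules and lysosome-related organelles, Rab37 had a CTD-ind site inside (chromosome 11, 115153869 to 115154168). Rab3a, Rab3b, Rab3c and Rab3d, the GTPases of regulated exocytosis, had none, nor did Rab26, Rab27a, Rab27b, Rab32 and Rab38.

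The remaining 14 GTPases had sites at 2 genes. Rab44, a large Rab protein linked to granule release, had 3 on chromosome 17: YmA-ind sites 2.20 kb outside (29111782 to 29112081) and inside (29116080 to 29116379), and a YmA-dep site inside (29143384 to 29143683). Rab36 on chromosome 10 had a CTD-ind site inside (75037001 to 75037300) and a YmA-ind site 1.19 kb outside its other end (75055784 to 75056083). Rab12, Rab17, Rab20, Rab23, Rab28, Rab33a, Rab34, Rab39, Rab39b, Rab40b, Rab40c and Rab42 had none. Among the partner proteins, Rab11fip4, an effector of Rab11 with a role in cell division, had a CTD-ind site inside (chromosome 11, 79624986 to 79625285). A CTD-ind and a YmA-dep site lay 41.2 and 58.6 kb outside it, and with sites inside or within 10 kb it had 1.

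Of 19 groups of genes that share a number in their symbol, 12 were alike in having or lacking sites, 2 with sites at each member and 10 with none, and 7 were mixed. No count expected for unrelated genes was computed. As 29.3% of the 99 members had a site, unrelated genes would often both lack one, so these counts do not show that paralogs share sites. Of 14 such groups of Rab GTPases (31 genes), 1 had sites at each member (Rab8), 5 at some and 8 at none. Of 5 Tbc1d groups (11 genes), 1 had sites at each member (Tbc1d2), 2 at some (Tbc1d9, with Tbc1d9b alone, and Tbc1d10) and 2 at none (Tbc1d8 and Tbc1d22). Tbc1d1 and Tbc1d4 both regulate glucose transporter traffic. Tbc1d1 had its CTD-ind start site and a YmA-dep site inside (chromosome 5, 64218315 to 64218614), while the nearest site to Tbc1d4 lay 1161 kb away. Of the members, 6 lie on chromosome X, and 0 of these had a site. Of all 963 protein-coding genes of that chromosome, 5.71% had one.

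Absence of an assigned site did not always mean absence of a site nearby. Of 16 Tbc1d genes without one, 3 had a site of another gene within 10 kb and 13 within 100 kb. Of 54 such Rab genes, 6 had one within 10 kb and 34 within 100 kb. The closest was a CTD-ind site of Ntn3, 0.703 kb from Tbc1d24, a gene of epilepsy and synaptic vesicles. A CTD-ind site of Pde4c lay 2.24 kb from Rab3a and one of Suox 2.96 kb from Rab5b, while YmA-ind and CTD-ind sites of Mxd3 and Il4i1b lay 3.65 kb from Rab24 and 4.54 kb from Tbc1d17. The median distance to the nearest site was 43.7 kb for Tbc1d and 59.9 kb for Rab genes without one. These counts and distances were not computed for other protein-coding genes without a site, so they show nothing particular to the members. At the other extreme, the nearest sites to Rab28, Rab9b and Rab3gap2 were 2073, 2256 and 3053 kb away. The Tbc1d genes without a site were Tbc1d4, Tbc1d7, Tbc1d8, Tbc1d8b, Tbc1d9, Tbc1d10b, Tbc1d12, Tbc1d13, Tbc1d17, Tbc1d20, Tbc1d21, Tbc1d22a, Tbc1d22b, Tbc1d24, Tbc1d25 and Tbc1d30.

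The 100 kb limit touched few members. The farthest sites it kept were those 58.6 kb from Rab11fip4 and 59.4 kb from Tbc1d5. The nearest it left out were 3 sites 135, 149 and 154 kb from Tbc1d1 and 1 site 243 kb from Tbc1d5. With 2 or more sites, 4 Tbc1d genes (13.3%) and 5 Rab genes (7.25%) stood beside 6.78% of all genes. Within 1 kb of an end of the gene itself, 4 Tbc1d genes (13.3%) and 6 Rab genes (8.70%) had a site, against 5.08%.

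Other genes of the Rab cycle, in 4 lists, had sites at 24 of 77 genes (31.2%, 21.1 to 42.7%), against 19.6% of all genes. These lists were drawn up with earlier results known, and their genes were not compared by span. TBC domain genes with other symbols had sites at 3 of 10, all CTD-ind: Evi5l with 2, Usp6nl and Rabgap1l with 1 each. Rab exchange factors had sites at 10 of 30 (33.3%, 17.3 to 52.8%), an interval that holds the share of all genes. Of their 19 sites, 13 had the class YmA-ind, 6 the class CTD-ind and 0 the class YmA-dep. Over all assigned sites these classes made up 53.6, 35.1 and 11.2%. Those with the most were Dennd3 with 5, Dennd4a and Rin3 with 3 and Dennd1a with 2. Among genes of prenylation and membrane cycling, Rabggta, a subunit gene of the enzyme that prenylates Rab proteins, had a CTD-ind site 0.360 kb from an end. Effectors had sites at 9 of 30 (30.0%, 14.7 to 49.4%), and this interval too holds 19.6%. There were 2 each at Rilpl1, Sytl3, Micall2 and Bicd2, and both at Sytl3, a granule tether of Rab27, were YmA-dep.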

How the data were processed

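ChIP-seq sites of EBF1 were analysed for 1 of 5 libraries, anti-EBF1 with EBF1 wt. The deposited list gives positions in bp and, per the file headers, a class named as a deepTools group. Bowtie2, SAMtools, deepTools and the build GRCm38 (mm10) are named per the submitters' processing notes, without versions. No source used here gives a peak caller, a threshold, the step behind the 300 bp widths or the read depth. Genes and promoters came from RefSeq tables of GRCm38. Genes of the assembled chromosomes 1 to 19 and X were kept, 49209 in all, of which 21521 are protein-coding. Site starts were converted to 1-based positions. Of 7494 sites, 7082 received a protein-coding gene. Exons were not separated, and some neighbouring and pathway genes are not reported here. Intervals are exact (Clopper-Pearson, 95%), or exact Poisson for densities. Sites of 1 gene are not independent, so intervals may be too narrow. No test was run, since the families and lists were chosen with earlier results of these data known. Each member with a site is named, with positions for sites within 10 kb and pathway genes by most sites. The assignment was checked on planted positions. Distance limits, competing genes, 1 site per run, chromosome X and motif length were varied. Python 3.11.15, pandas 2.3.3, NumPy 2.4.6, SciPy 1.17.1 and Matplotlib 3.10.9 were used.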

Additional observations from a re-analysis of the deposited data

How the results depend on the processing

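Of 131 alternative values of 19 shares, 128 stayed within the 95% interval of the reported value. Those intervals are wide, up to 3.67 to 71.0% for genes of prenylation and membrane cycling, so this count says little about stability. The CTD-ind share of Tbc1d sites, 40.0% (21.1 to 61.3%), counted as within its interval at 23.5% without Tbc1d16. The share of Tbc1d genes with a site ranged from 40.0 to 50.0% and that of Rab genes from 20.3 to 23.7%. Rab sites near a gene end rose to 56.5% when near meant 5 kb, which is a wider zone by construction. With TCCCNNGGG, a stricter motif, 6.76% of Rab promoters and 7.33% of all promoters matched. Of 203 alternative site counts at the 29 members with a site, 186 stayed within 1.5 times the reported count. Tbc1d16 went from 8 sites to 4 when all RefSeq genes competed and to 2 with 1 site per run, under which Tbc1d2 and Tbc1d2b had 0. Rab11a, Tbc1d19 and Tbc1d31 lost their site when all RefSeq genes competed. The alternatives without Tbc1d16 were chosen after the data were seen. No paired analysis was possible because each group holds 1 library. Read depth is unknown, so a missing site may be a site below the authors' threshold.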

Other observations

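Of 70 members without a site, 3 had as their nearest site one that belonged to another gene of the Rab cycle, and no share expected for this was computed. The site closest to Rab21, an early endosomal GTPase, was the YmA-ind site of Tbc1d15, 47.3 kb away. That closest to Rab13 was a CTD-ind site of the exchange factor gene Dennd4b, 39.2 kb away, and that closest to Rab1b a YmA-ind site of Rin1, 42.0 kb away. Rab7b and Rab29 both had a CTD-ind site of Nucks1 as their nearest, at 196 and 38.3 kb.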
